A study of Mus musculus with 6 samples.

Results

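The major urinary proteins (Mup) of the mouse liver were followed over 4 months of alcohol feeding with every array probe whose gene name began with Mup and a digit. This rule found 4 of 27962 gene names and 7 of the 41174 probes measured, 3 named Mup1, 2 named Mup3, 1 named Mup4 and 1 named Mup5. The Mup genes were chosen by their alcohol over control ratios in these arrays, so the alcohol over control values of the Mup probes are given as a description and without a test. The livers came from male 129/Sv mice that were 6 to 8 weeks old when feeding began. The alcohol groups received a liquid diet with 4% ethanol ad libitum, and the control groups an isocaloric liquid diet in which maltose dextran took the place of the ethanol. After 1, 2 and 4 months, liver RNA of 6 mice was combined into 1 alcohol pool and 1 control pool, so 6 pools were compared and the spread between mice was not measured. Both pools of a month were hybridized together on 2 arrays with the dyes Cy5 and Cy3 exchanged. These arrays are technical repeats of the same RNA.

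Major urinary proteins are small lipocalins, barrel-shaped carriers that bind volatile pheromones. The liver of adult males secretes them in large amounts into the blood, the kidney filters them into the urine, and there they release scent slowly and mark the individual. Their genes lie in one cluster of close copies, and hepatic transcription is known to need pulsatile growth hormone acting through STAT5, with androgen, thyroid hormone and glucocorticoid as further inputs. Their messenger RNAs are also known to fall with fasting and in models of obesity and diabetes.

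The RefSeq annotation of GRCm38.p6 lists 22 Mup genes with a number, all on chromosome 4. Their sequences are close enough that a signal on a probe named for 1 gene may come from several, and the probe sequences were not used here. Each Mup value below therefore belongs to a probe, named by its gene and accession, and not to a single gene. Of the 4 gene names, 2 had an upstream sequence in the table used, Mup3 and Mup4. These sequences are shown because the members share features that the choice of genes did not use. Each runs over the 250 bases before the annotated start, 5′ to 3′ on the minus strand of GRCm38.p6, for Mup3 at chr4:62087318-62087567 and for Mup4 at chr4:59960668-59960917. Capitals mark 2 patterns. ATCAAT is a core that HNF6 (Onecut1) can bind. The other, TATATAA, is a form of the box that places the start of transcription.

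Mup3: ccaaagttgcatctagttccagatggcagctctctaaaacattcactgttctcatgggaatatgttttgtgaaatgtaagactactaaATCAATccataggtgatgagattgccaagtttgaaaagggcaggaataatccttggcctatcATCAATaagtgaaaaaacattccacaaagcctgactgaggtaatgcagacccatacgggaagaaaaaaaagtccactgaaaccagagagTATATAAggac
Mup4: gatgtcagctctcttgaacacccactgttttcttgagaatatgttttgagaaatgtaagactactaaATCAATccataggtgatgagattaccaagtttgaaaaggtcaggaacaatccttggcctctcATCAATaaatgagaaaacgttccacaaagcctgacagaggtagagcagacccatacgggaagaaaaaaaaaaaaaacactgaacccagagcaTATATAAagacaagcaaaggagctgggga

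Both sequences held ATCAAT at 2 places and TATATAA at 1 place. The latter pattern began 11 bases before the annotated start of Mup3 and 29 bases before that of Mup4. Aligned to each other, the sequences were identical at 203 of 229 aligned bases (88.6%). Over the 14 Mup upstream sequences in the table, ATCAAT was found on either strand in 14, against 6.72% of the 32851 upstream sequences of all genes, and TATATAA in 11, against 3.04%. The motifs did not overlap each other. TTCNNNGAA, the letters bound by STAT5, was in none of the 14 and in 7.02% of all. TTGNNCAA, a C/EBP pattern, was also in none of the 14 and in 5.65% of all. TGTTCT, a steroid receptor half-site, was in 2 of the 14, Mup3 among them, and in 16.1% of all. These are matches of letters within 250 bases, not sites. The 14 sequences are close copies, with a median of 93.4% identical aligned bases over 91 pairs, so their counts are not independent.

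Mup signals were strong in every pool. All 84 probe readings (7 probes, 12 channels) were well above background and none was saturated. All 84 readings were taken from the low-gain scan and scaled up by the scanner software, which was done for 4.78% to 16.3% of all spots in a channel. After dye normalization the signals ran from 6924 to 91342. Each Mup probe was printed as 1 spot, so no repeat within an array was available. Hepatocyte markers were present throughout. Of 8 marker genes 7 had a probe (Alb, Apoa1, Apob, Cps1, Cyp2e1, Tat and Ttr), and all 7 were well above background in all 6 pools.

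Alcohol over control ratios of the Mup probes lay below 0 on the log2 scale in 20 of 21 probe and month combinations. Of all probes, 46.4%, 44.6% and 50.3% were below 0 at 1, 2 and 4 months. Over the 7 probes the monthly medians were -0.89, -0.30 and -0.97 (in order of time), while the median over all 41174 probes came to 0, 0 and -0.0011. An average lower by at least 2-fold was seen for 1 Mup probe at 1 month (Mup4), for 0 at 2 months and for 3 at 4 months (Mup3 NM_001039544, Mup4 and Mup5). Over all probes, 0.0874%, 0.192% and 0.367% were lower by at least 2-fold at 1, 2 and 4 months. Because these ratios chose the Mup genes, nothing is read from that difference. At a limit of 1.5-fold lower the Mup counts were 6, 1 and 6, beside 0.629%, 1.61% and 1.83% of all probes. No Mup probe was higher by 2-fold at any month, as were 0.148%, 0.231% and 0.444% of all probes. The probes nearest to the 2-fold line were Mup4 just past it (-1.04 at 1 month, -1.002 at 4 months) and Mup1 NM_031188 just short of it (-0.97 at both).

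**Figure D1:**
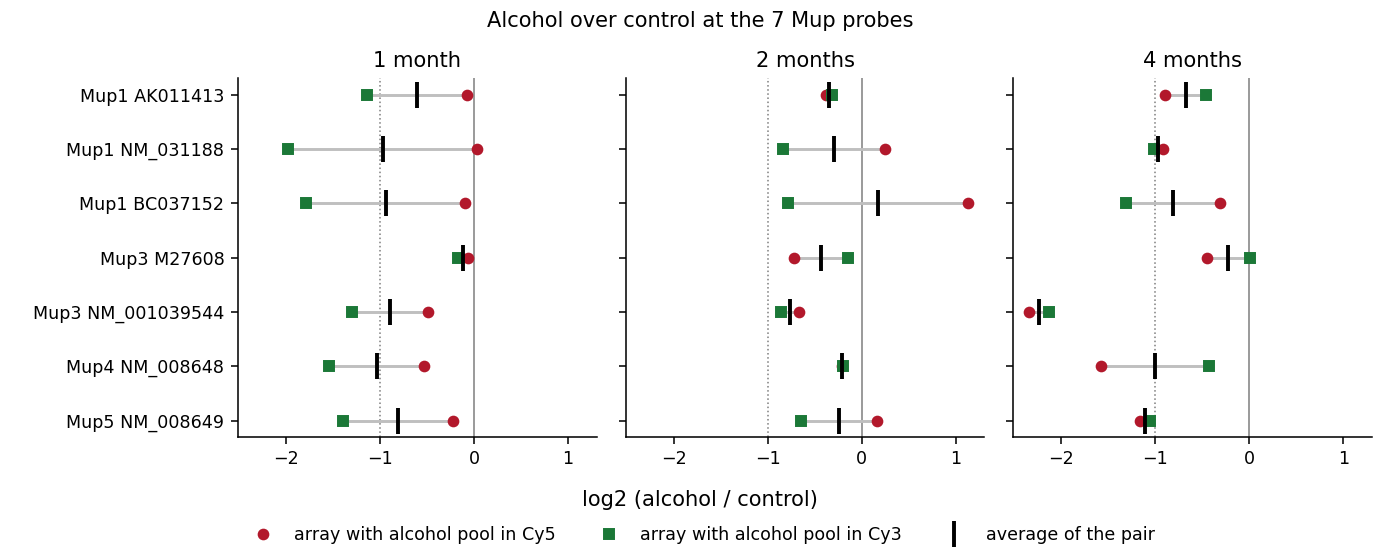
Log2 ratio of alcohol over control (horizontal axis) for the 7 Mup probes at 1, 2 and 4 months, with the array that had the alcohol pool in Cy5 (circles), the array with it in Cy3 (squares) and their average (bars); the dotted line marks 2-fold lower. At 1 month the arrays of the pair lie far apart for most probes, at 2 months the averages lie nearest to 0 for all but Mup3 M27608 (-0.44), and at 4 months Mup3 NM_001039544 stands lowest, at -2.34 and -2.13.

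The agreement of the dye-swap arrays differed between the months. At 1 month the Mup median was -0.10 where Cy5 labelled the alcohol pool and -1.39 where Cy3 did. The former array had 0 Mup probes lower by 2-fold and the latter 6. The month-1 values in Cy5 ran from -0.53 to 0.04 and those in Cy3 from -1.98 to -0.17, and 6 of 7 probes were below 0 on both. At 2 months the medians were -0.21 and -0.64, and 4 of 7 probes were below 0 on both arrays. At 4 months the medians were -0.92 and -1.02, 6 of 7 probes were below 0 on both arrays, and 2 (Mup3 NM_001039544 and Mup5) were lower by at least 2-fold on each. Over all probes, 0.0389%, 0.0729% and 0.172% were that low on both arrays. Over all probes, 22.2%, 16.5% and 16.5% were below 0 on both arrays at 1, 2 and 4 months.

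A dye part, the half-difference between the ratios of the array pair, was computed for each probe. It was above 0 for 7 of 7 Mup probes at 1 month, where its median was 0.53 and its highest value 1.01. At 2 months it was above 0 for 4 probes and at 4 months for 2, with medians of 0.09 and -0.11. Over the 27914 probes that cleared the background in all channels, the dye part had an SD of 0.14, 0.25 and 0.31 at 1, 2 and 4 months. The SD of the paired arrays was larger than the size of their average for 4 Mup probes at 1 month, for 3 at 2 months and for 1 (Mup3 M27608) at 4 months. The part of the dyes and of the scaled low-gain scan in the 1-month values was not tested. The 1-month arrays had a slide of their own, and a second slide held the 2- and 4-month arrays, so slide and month cannot be told apart for 1 month against the later months.

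**Figure D2:**
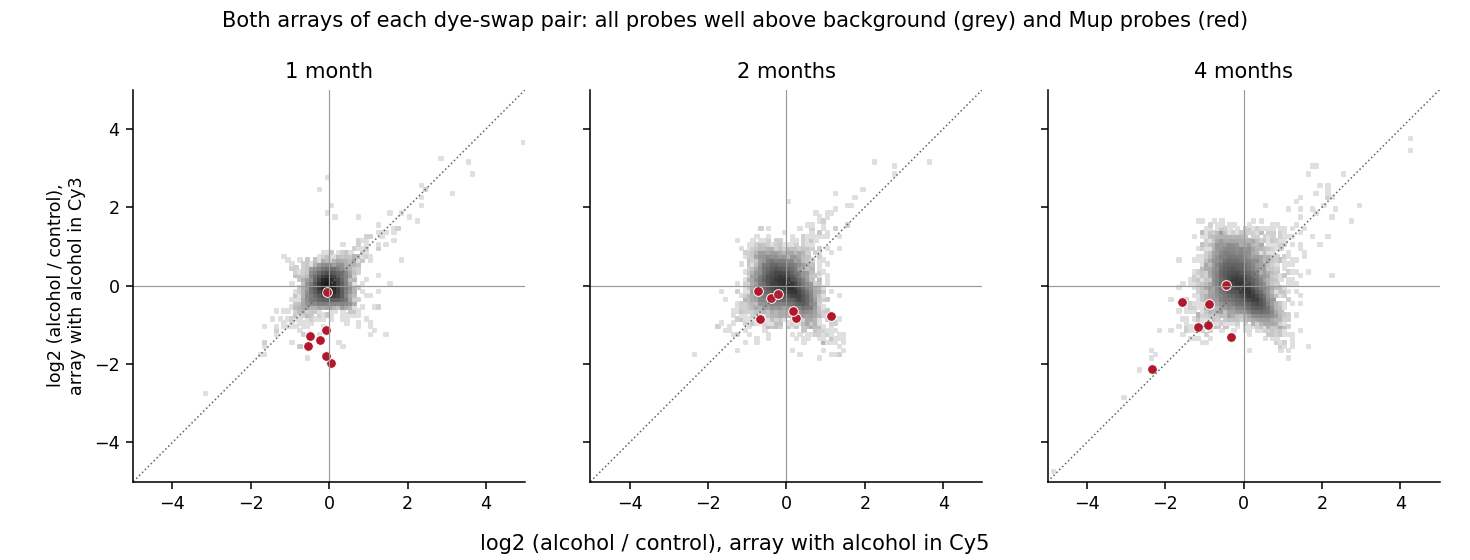
Log2 ratio of alcohol over control on the array with alcohol in Cy5 (horizontal axis) against the array with alcohol in Cy3 (vertical axis) for 27914 probes that cleared the background on all 6 arrays (grey, binned, darker for more probes) and the 7 Mup probes (red). Equal readings fall on the dotted diagonal, below which all 7 Mup probes lie at 1 month; 5 of them lie closer to it at 4 months, and Mup4 and Mup3 M27608 lie farther from it, above.

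Mup3 was read by 2 probes with different ratios. On the probe for NM_001039544 the log2 ratios, with alcohol in Cy5 first, were -0.49 and -1.30 in the first month sampled, -0.67 and -0.86 in the next, and -2.34 and -2.13 after 4 months. The averages were -0.89 ± 0.57, -0.77 ± 0.13 and -2.23 ± 0.15 (SD, n = 2 arrays), so at 4 months the alcohol pool held 21.3% of the control signal, or 4.70-fold less. All 6 arrays were below 0, which 2.19% of all probes were. On the probe for M27608 the averages were -0.12 ± 0.08, -0.44 ± 0.41 and -0.22 ± 0.33 (SD, n = 2 arrays), and 5 of 6 arrays were below 0. Both probes carry the name Mup3, and their 4-month arrays did not overlap, with the M27608 arrays at -0.45 and 0.01.

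The signals behind the NM_001039544 ratios were as follows. At 1 month the control pool read 27390 and 31378 and the alcohol pool 19517 and 12770, array with alcohol in Cy5 first. At 2 months the control pool read 32277 and 27633 and the alcohol pool 20265 and 15224. At 4 months the control pool read 61049 and 30254 and the alcohol pool 12063 and 6924. In each month both alcohol readings lay below both control readings.

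Mup4 averaged -1.04 ± 0.72, -0.21 ± 0.01 and -1.002 ± 0.82 over the months (SD, n = 2 arrays). With alcohol in Cy5 first, its arrays read -0.53 and -1.54, then -0.21 and -0.20, then -1.58 and -0.42. All 6 arrays were below 0, yet the paired arrays of 1 and of 4 months were each over 1 log2 unit apart, in opposite order. Its alcohol signals at 4 months were 25825 and 26598 and its control signals 77253 and 35683. These signals were not scaled between the arrays. As levels relative to the same channel, described below, the alcohol pool read 3.30 and 3.68 (SD 0.27). The control pool read 4.87 and 4.11 (SD 0.54). Both pools thus differed between the arrays, the control pool by more.

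Mup5 averaged -0.81 ± 0.83, -0.24 ± 0.57 and -1.11 ± 0.08 (SD, n = 2 arrays) at 1, 2 and 4 months. The arrays read -0.23 and -1.39, 0.16 and -0.64, and -1.17 and -1.06, so that 5 of 6 lay below 0. At 4 months the alcohol pool held 46.3% of the control signal, and both alcohol readings (25073 and 16345) were below both control readings (56328 and 33979).

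Mup1 was read by 3 probes. The NM_031188 probe averaged -0.97 ± 1.43, -0.30 ± 0.77 and -0.97 ± 0.07 (SD, n = 2 arrays). Its 1-month arrays were the farthest apart of all Mup readings, at 0.04 and -1.98, and its 4-month arrays were among the closest, at -0.92 and -1.02. The AK011413 probe averaged -0.61 ± 0.75, -0.35 ± 0.05 and -0.68 ± 0.31 and was below 0 on all 6 arrays. The BC037152 probe averaged -0.94 ± 1.20, 0.17 ± 1.35 and -0.81 ± 0.71. At 2 months it gave the 1 average above 0 in the family, with 1.13 and -0.78 on its arrays. At 4 months the Mup1 probes lay at -0.97, -0.68 and -0.81, closer to each other than the probes of Mup3.

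The levels of each pool were then set apart, as log2 of the signal over the 75th percentile of the same channel. These levels are compared for 1 probe between pools, and not between probes. From 2 to 4 months, months that shared a slide, the alcohol pool was lower at 7 of 7 Mup probes, by a median of -1.07 (range -1.59 to -0.39; -0.66 after loess and Aquantile scaling). The control pool was also lower at 7 of 7 probes, by a median of -0.37 (range -0.61 to -0.13), which was -0.19 when scaled by the channel median and -0.15 after loess and Aquantile. Between the arrays with alcohol in Cy5 (control in Cy3) the alcohol median was -1.21 and the control median 0.01, and 3 of 7 control readings were lower. Between those with alcohol in Cy3 (control in Cy5) the medians were -0.99 and -0.69, and 7 of 7 control readings were lower. Over the 27914 probes above background, 49.5% were lower in the alcohol pool and 50.7% in the control pool. Other strong liver transcripts were lower too, namely 18 of 20 plasma protein genes in each pool (medians -0.73 in alcohol and -0.86 in control) and 6 of 7 hepatocyte markers in each (medians -0.70 and -0.66). The part of this shift in the Mup levels was not tested, and the ratios within an array do not use the levels of another month. For Mup3 NM_001039544 the control level was 4.77 ± 0.19, 4.33 ± 0.11 and 4.20 ± 0.47 at 1, 2 and 4 months, and the alcohol level was 3.88 ± 0.37, 3.56 ± 0.03 and 1.97 ± 0.32 (SD, n = 2 channels). The order over the pools of this probe was thus control at 1, 2 and 4 months, then alcohol at 1, 2 and 4 months. Alcohol at 4 months stood apart, with both channels (2.20 and 1.74) below all other channels of the probe, and so did control at 1 month (4.64 and 4.91), above the others. Control at 2 months overlapped with control at 4 months, and the latter with alcohol at 1 month, whose channels (4.15 and 3.62) lay just above those of alcohol at 2 months (3.58 and 3.54). Within the pooled RNA, fewer cells of a type and less RNA per cell cannot be told apart from the Mup probes alone. The alcohol over control ratios of the 7 hepatocyte markers had medians of 0.08, 0.03 and 0.02 at the 3 months and ran from -0.22 to 0.69 at 4 months. The paired arrays of these markers differed, with SDs up to 1.23, 1.20 and 1.82 at 1, 2 and 4 months. At 4 months their median was 0.81 with alcohol in Cy5 and 0.03 with it in Cy3. Lower by 2-fold were 0 markers in any month, beside 0.0874%, 0.192% and 0.367% of all probes, so a count of 0 among 7 says little.

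**Figure D3:**
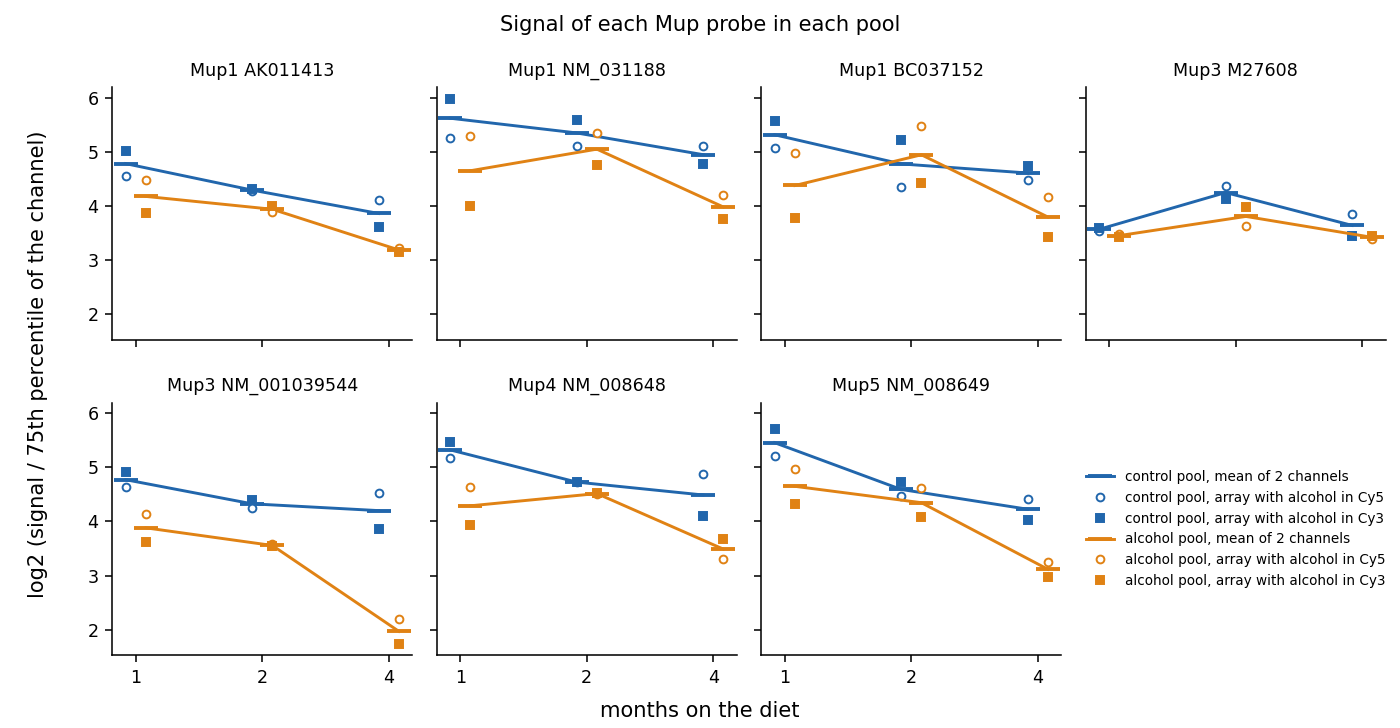
Level of each Mup probe in the control pool (blue) and the alcohol pool (orange) at 1, 2 and 4 months (equally spaced), as log2 of the signal over the 75th percentile of its channel, with open circles and filled squares for the separate arrays and bars for their mean. The alcohol pool is lower at 4 than at 2 months for all 7 probes, and lies farthest below the control pool for Mup3 NM_001039544 at 4 months (1.97 against 4.20).

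Genes that are known to be more active in male than in female liver, as the Mup genes are, were set beside the family. Of 18 such genes 17 had a probe, and their median log2 ratios were -0.90, -0.26 and -0.36 at 1, 2 and 4 months. Lower by at least 2-fold were 8 at 1 month (Moxd1 among them, which was not well above background in the alcohol pool), 2 at 2 months (Hsd3b5 and Cyp7b1) and 5 at 4 months (these, Slco1a1, C6 and Elovl3), against the 0.0874%, 0.192% and 0.367% of all probes. Raised by 2-fold were 0 in every month. The lowest were Hsd3b5, a male steroid 3-ketoreductase, at -2.93 ± 0.30, -2.04 ± 0.39 and -4.83 ± 0.07, and Cyp7b1, the oxysterol 7-alpha-hydroxylase, at -1.55 ± 0.12, -1.42 ± 0.48 and -1.64 ± 0.75 (SD, n = 2 arrays). The highest were Ugt2b38, a glucuronosyltransferase, at -0.27, -0.14 and -0.11, and the brightest Cyp4a12a probe, for a male fatty acid hydroxylase, at 0.50, 0.19 and -0.13. The other Cyp4a12a probe, which does not enter the counts, gave -1.05, -0.59 and -2.11.

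Genes with female predominance had medians above 0. Of 24 genes 21 had a probe, with medians of 0.38, 0.27 and 0.75, and 6, 6 and 3 of them were below 0 at 1, 2 and 4 months. Higher by at least 2-fold were 3 at 1 month (Cyp2b9, Cyp2b13 and Abcd2), 5 at 2 months (Cyp2b9, Cyp2b13, Cyp3a16, Cyp3a41a and Cyp3a44) and 10 at 4 months, against 0.148%, 0.231% and 0.444% of all probes, and 0 were lower. The highest were Cyp2b13 (3.40 ± 0.29, 2.88 ± 0.21 and 2.36 ± 0.27) and Cyp2b9 (2.73 ± 0.53, 1.11 ± 0.35 and 1.87 ± 0.11), cytochromes P450 of the female liver (SD, n = 2 arrays). The other Cyp2b13 probe gave 1.23, 0.17 and 0.19. The lowest were Cyp2c40, an arachidonic acid hydroxylase, at -0.30, -0.71 and -0.63, and Trim24, a transcriptional cofactor, at 0.0049, 0.27 and 0.09.

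With the 3 months as replicates, limma called 0 genes of any list at an adjusted p under 0.05 (Benjamini-Hochberg over 37940 probes, of which 0% were called). At an unadjusted p under 0.05, 10 of 17 male-predominant genes were lower and 0 higher, and 8 of 21 female-predominant genes were higher and 2 lower. Of all probes, 4.44% were lower and 3.54% higher. The gene lists were chosen with earlier results of these data known. The limma p-values of list genes are therefore a description, and nothing is read from a count of any list against the share of all probes. The smallest limma adjusted p was 0.106 for Cyp7b1 among the male genes and 0.213 for Cyp2b13 among the female genes. These were the genes called when the arrays were corrected by normexp and loess (limma adjusted p = 0.00539 and 0.0148; 0.0237% of all probes called) or when only probes well above background on all 6 arrays were tested (limma adjusted p = 0.00672 and 0.0261; 0.0215% of probes called). With the mean over the probes of a gene the count was again 0.

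**Figure D4:**
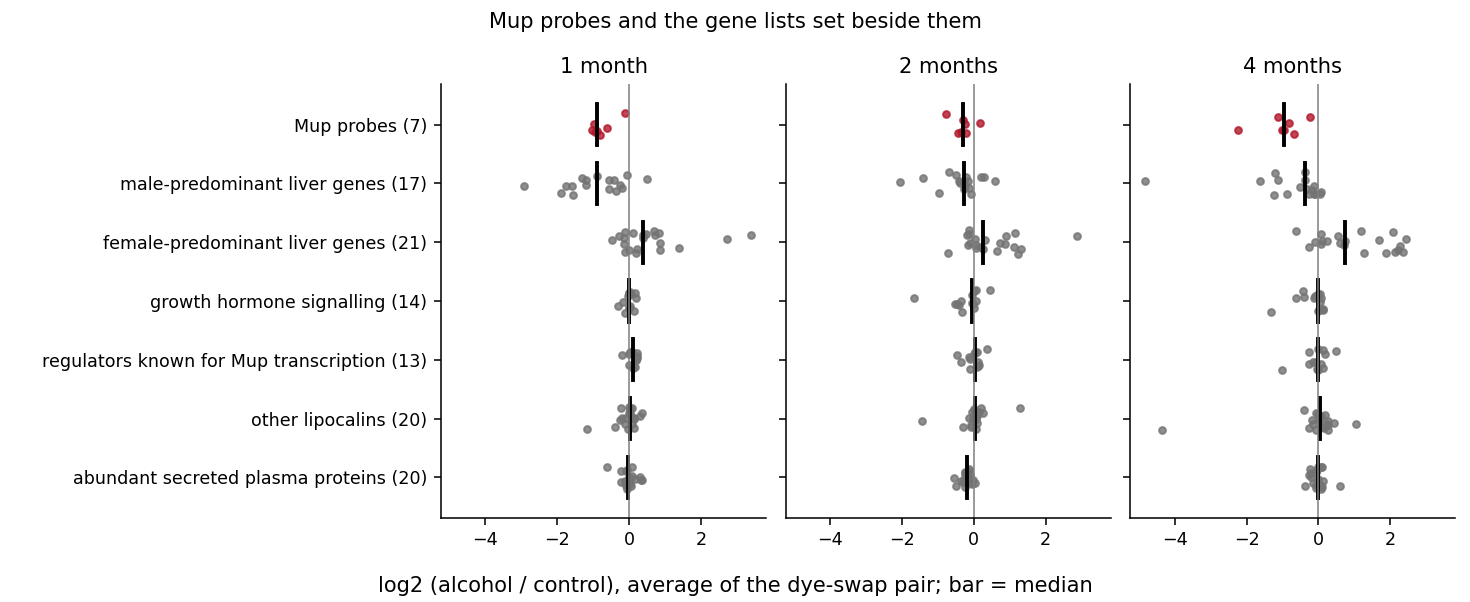
Log2 ratio of alcohol over control, averaged over the dye-swap pair (horizontal axis), for the 7 Mup probes (red) and the genes of 6 lists (grey, number with a probe in brackets) at 1, 2 and 4 months; black bars are medians. The Mup probes and the male-predominant genes lie mostly left of 0 and the female-predominant genes mostly right of it, while the medians of the other 4 lists stay between -0.19 and 0.12.

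Transcripts of the sex chromosomes were read as a check of the sex in the labels. The Y-linked genes Ddx3y, Eif2s3y and Kdm5d were well above background in 12 of 12 channels. Their log2 ratios ran from -0.29 (Kdm5d at 2 months) to 0.07 (a Ddx3y probe at 2 months). The Uty probes that cleared the background in all 12 channels ran from -0.14 to 0.18. Xist, the RNA of the inactive X chromosome, had 4 probes, which were well above background in 12, 8, 1 and 0 of the 12 channels. The first of these gave -0.18 ± 0.47, 0.18 ± 0.36 and 0.12 ± 0.23 (SD, n = 2 arrays).

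Components of growth hormone signalling, the hormonal input known best for Mup transcription, had medians of -0.0026, -0.05 and -0.0066 over 14 genes. Lower by 2-fold was 1 gene at 2 and at 4 months (0.192% and 0.367% of all probes), Cish, a feedback inhibitor that STAT5 induces, with -0.30 ± 0.04, -1.67 ± 0.20 and -1.32 ± 0.40 (SD, n = 2 arrays). Cish was named after its values were seen, and at 4 months it was well above background in 1 of the 2 alcohol channels. The growth hormone receptor Ghr, by the brightest of its 5 probes, read 0.05 ± 0.08, -0.41 ± 0.50 and -0.63 ± 0.79 (SD, n = 2 arrays). Its SD was larger than the size of the ratio in each month. Ghrhr, the receptor for the releasing hormone, read -0.02 ± 0.07, -0.36 ± 0.31 and -0.42 ± 0.15 (SD, n = 2 arrays). At the upper end were the transducer Stat5a (0.14, 0.00049 and 0.12) and the phosphatase Ptpn11 (-0.01, 0.46 and 0.13). Igf1, the main hepatic output, read -0.11 ± 0.17, -0.03 ± 0.53 and -0.01 ± 0.90, and was also named after its values were seen. The limma count at an unadjusted p under 0.05 was 3 of 14 lower and 0 higher, beside 4.44% and 3.54% of all probes.

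Among 13 regulators known for Mup transcription the medians were 0.12, 0.04 and -0.01, and 1 gene passed 2-fold in 1 month, lower at 4 months as were 0.367% of all probes. This was Foxa2, a liver forkhead factor, with 0.21 ± 0.04 at 1 month, -0.47 ± 0.22 at 2 months and -1.01 ± 0.21 at 4 months (SD, n = 2 arrays; limma adjusted p = 0.671 over the months). Cebpa, a liver bZIP factor, read 0.12, -0.37 and -0.26, with an SD of 1.21 between the arrays of 4 months. The highest were Cebpb, its relative that responds to inflammation, at 0.01, 0.35 and 0.48, and the nuclear receptor Hnf4a at 0.18, 0.12 and 0.11. Of the 13 genes, 1 was lower and 0 higher at an unadjusted limma p under 0.05 (Foxa1, named after its values were seen, at -0.20, -0.14 and -0.15), which is near the 4.44% and 3.54% of all probes.

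Other lipocalins, which share the protein fold, varied widely. Over 20 genes with a probe, of 21, the medians were 0.01, 0.04 and 0.05. Lower by 2-fold was 1 gene in each month, beside 0.0874%, 0.192% and 0.367% of all probes. Higher by 2-fold were 0, 1 and 1 (Lcn2), beside 0.148%, 0.231% and 0.444%. The lowered gene was in each month the one named Lcn13 on the array (Obp2a by its accession), a liver-secreted lipocalin named here after its values were seen. It read -1.44 ± 0.25 at 2 months and -4.34 ± 0.15 at 4 months (SD, n = 2 arrays), and at 1 month it was not well above background in either alcohol channel. Its 4-month signals were 2800 and 1744 in the control pool and 128 and 92.7 in the alcohol pool. Of the lipocalins well above background on all 6 arrays, the lowest were C8g, a complement subunit (-0.21, -0.31 and -0.39), and Ptgds, a prostaglandin synthase (-0.23, -0.02 and -0.02). The highest were Lcn2, the iron-siderophore binder of acute inflammation (0.36 ± 0.33, 1.28 ± 0.47 and 1.04 ± 0.47; SD, n = 2 arrays), and Orm2, an acute phase orosomucoid (0.31, 0.09 and 0.25).

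Abundant plasma proteins served to show how strong secretory transcripts behaved on the same arrays. Over 20 genes with a probe, of 22, the medians were -0.03, -0.19 and -0.02, and 0 genes were lower or higher by 2-fold in any month. Of all probes, 0.0874%, 0.192% and 0.367% were that much lower and 0.148%, 0.231% and 0.444% higher, so 0 of 20 is near the share. The paired arrays nevertheless differed strongly, with SDs up to 1.90, 1.94 and 2.30 at 1, 2 and 4 months and medians of 0.44, 0.44 and 0.49. The lowest were Apoa1 (-0.61 ± 1.23, -0.14 ± 1.20 and -0.05 ± 1.82) and Apoc1 (0.07 ± 1.90, -0.49 ± 1.94 and -0.37 ± 2.10), both apolipoproteins (SD, n = 2 arrays). The highest were albumin, Alb (0.31 ± 0.71, 0.03 ± 0.43 and 0.59 ± 0.31), and fetuin A, Ahsg (0.32 ± 1.28, -0.21 ± 1.31 and 0.14 ± 1.86). At 4 months the Alb spot read 1235 and 706 (alcohol, control) on the array with alcohol in Cy5 but 48638 and 37568 on its partner, which alone gave a ratio of 0.37.

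The probes most like Mup3 NM_001039544 were looked for among the 27907 other probes well above background on all arrays, by the root mean square difference of the 3 monthly log2 ratios. Nearest was a Cyp4a12 probe (difference 0.16), at -1.05, -0.59 and -2.11. The brightest probe of that gene, also given above, did not share this course, as the other Mup3 probe did not share that of its gene. Next were AK044272, which has no gene symbol (0.30), the succinate receptor Sucnr1 (0.40), the complement component C9 (0.46) and the arrestin-related Arrdc3 (0.55). Their 4-month ratios, low because likeness to this probe chose them, ran from -1.54 for C9 to -2.90 for Arrdc3. The remaining Mup probes lay farther away, from 0.72 for Mup5 to 1.26 for Mup3 M27608.

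**Figure D5:**
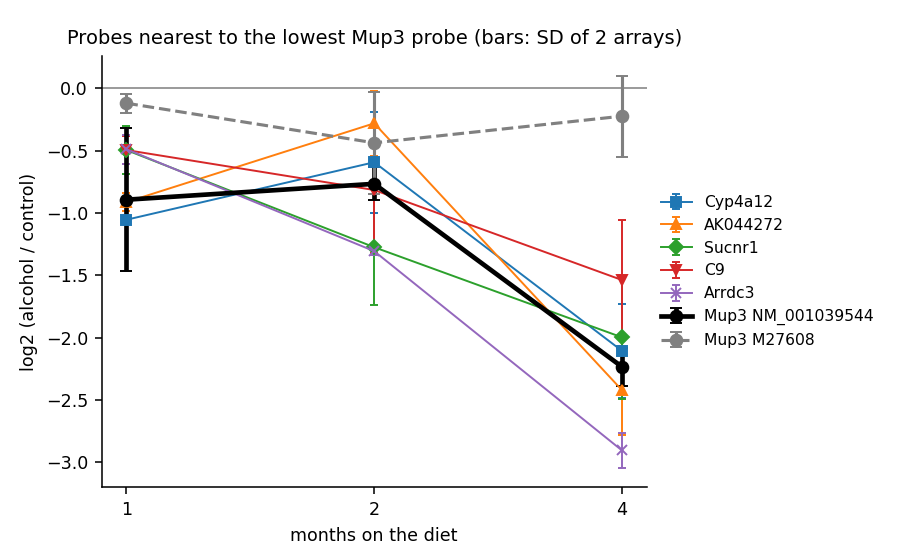
Log2 ratio of alcohol over control (vertical axis) at 1, 2 and 4 months (equally spaced) for Mup3 NM_001039544 (black), the 5 probes with the smallest root mean square difference from it (colours) and the other Mup3 probe (grey, dashed); bars are the SD of the 2 arrays. The 5 coloured probes were chosen for likeness to the black one and reach -1.54 to -2.90 at 4 months, while Mup3 M27608 stays at -0.22.

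Markers of other tissues and cells were read beside the Mup probes. Pancreas acinar enzymes, with a probe for 12 of 13 genes, had monthly medians of -0.02, 0.04 and 0.77, the last in the month when Mup3 NM_001039544 was lowest. At 4 months 4 of the 12 were higher by 2-fold (Cela2a, Pnliprp1, Cpb1 and Reg1, named after their values were seen), beside 0.444% of all probes. These 4 were well above background in 5, 9, 11 and 9 of the 12 channels. The summed signal was 25.2 and 27.1 times the 75th percentile in the alcohol pool against 18.7 and 20.7 in the control pool. The part of pancreas tissue in the Mup ratios was not tested. Salivary and lacrimal gland markers, glands that also make Mup, had medians of 0, 0 and 0.02 over 13 genes with a probe. Of these genes 7 were well above background on all 6 arrays, so dim probes enter the medians and the sums. Their summed signal in the alcohol and the control pool was 18.8 and 22.5 times the 75th percentile in the first month, then 24.5 and 28.9, and last 25.9 and 28.0. Both alcohol arrays were below both control arrays at 1 and 2 months, and their part in the Mup ratios was not tested. The erythroid marker Hba-a1 read 1.51 ± 0.20, -0.10 ± 0.21 and 0.61 ± 0.18, and Alas2 0.05 ± 0.09, -0.75 ± 0.42 and -2.003 ± 0.39 (SD, n = 2 arrays). The medians of the Kupffer cell, stellate cell and bile duct lists stayed between -0.07 and 0.16 in all months. In the Kupffer cell list 1 gene was higher by 2-fold, Adgre1, at 1.23 ± 0.74 at 1 month (SD, n = 2 arrays; 0.148% of all probes).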

How the data were processed

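Liver RNA pools were measured on 6 two-colour Agilent 4x44K arrays. Per the file headers the authors used Feature Extraction 9.1.1.1, which subtracted background, normalized the dyes with LOWESS and wrote a log10 ratio of Cy5 over Cy3 and 2 processed intensity values per spot. From these deposited log10 ratios, log2 ratios were computed, turned to alcohol over control, averaged over repeated spots, then over both dye orientations. Pool levels are log2 of the deposited processed intensity over the 75th percentile of its channel. The authors' value table held the same ratios within 0.02 log2 units. Of 45018 spots, 1639 control spots were left out, and 41174 probes remained, with 73.3% to 90.3% of spots well above background per channel. Depth has no counterpart on arrays, and the number of pools limits the precision.

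The Mup genes and the gene lists were chosen with earlier results of these data known. Symbols came from RefSeq accessions where matched (22951 of 25510 probes with one), and the brightest probe stood for a gene. In each list the 2 highest and 2 lowest genes by mean log2 ratio, among those well above background on all 6 arrays, are named. The monthly ratios of probes that cleared the background in 1 channel or more were tested with limma (version 3.58.1, R 4.3.3), months as replicates, after a check on simulated data. Its p-values measure the spread between months, which mixes time with pool and slide. Alternatives were normexp (offset 50) with loess, the value table, error weights, median centring, leaving out saturated spots, single arrays, other filters and a 1.5-fold limit, and a version without LOWESS that was added after the data were seen. Columns of the authors' own p-values per spot were not used.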

Additional observations from a re-analysis of the deposited data

Results flagged for a closer look

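No Mup probe had both arrays of one month above 0 and both of another below it. Of the 130 list genes well above background on all 6 arrays 19 did (14.6%), beside 15.3% of the 27914 probes of that kind, and the difference between the months was not tested for any gene. Those given here are the genes named in the text or by the rule for named genes, each with the highest month above 0 minus the lowest month below it on the log2 scale. Above 0 at 1 month and below it at 2 and 4 months were Foxa2 (1.22), Ttr, the thyroid hormone carrier (0.889), and Spp1, a bile duct marker (0.872). Above at 2 months and below at 1 and 4 months were Elovl3, a fatty acid elongase (1.78), and a Ddx3y probe (0.230). Below at 2 months and above at 1 and 4 months were the pancreas enzyme Cpa1 (0.914) and the collagen Col1a1 (0.474). The stellate cell enzyme Lrat was below 0 at 1 month only (0.555). The pancreas enzyme Cpb1 was below 0 at 1 month and above it at 4 months (2.48), both months with all channels well above background. Months in which a pool of the gene was dim were left out.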

How the results depend on the processing

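Mup results rested most on single arrays at 1 month. The count of Mup probes lower by at least 2-fold (1, 0 and 3 at 1, 2 and 4 months) ran from 0 to 6 on the single arrays of 1 month, was 0 on both of 2 months and ran from 3 to 4 at 4 months. The median ran from -1.39 to -0.10, from -0.64 to -0.21 and from -1.02 to -0.92. At 1 month the count was 0 with error weights and 0 without LOWESS, and at a 1.5-fold limit it was 6, 1 and 6 at the 3 months. At 4 months Mup4 crossed the 2-fold line with small shifts, which left 2 probes under normexp and loess, error weights, median centring and no LOWESS. The 4-month median was -0.87 under normexp and loess and -0.89 without LOWESS. Of 126 single-probe values under alternatives that kept both arrays, 120 stayed within 1 SD of the paired arrays, and 0 values past 2-fold changed sign. This count does not measure stability. Leaving out saturated spots could not move a value, as 0 Mup readings were saturated, and the value table held the same ratios. The SD of the paired arrays also reached 1.43, which is a wide limit. Between 2 and 4 months the alcohol level differed by -0.66 (median of probes) after loess and Aquantile, against -1.07, and the control level by -0.15 (-0.19 with the channel median) against -0.37. List genes called by limma numbered 2 under normexp and loess and 2 with the strict filter, against 0, and 0 without any 1 month. With 1 pool per diet and month, differences between mice could not be measured.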
